A study of Oryza sativa with 36 samples.

Results

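In rice roots 175 transcripts, each of a different locus, were lowered 6 h after the application of zaxinone, an apocarotenoid growth regulator, out of 29801 transcripts listed for roots at that time. They were chosen on the measurement itself. Raw counts were divided by the library total and scaled to CPM, the reads of a transcript per 1000000 reads of its library. A transcript was kept if its log2 ratio of the zaxinone mean to the mock mean, with 0.5 CPM added to each, was -0.7 or lower, if its highest zaxinone library lay below its lowest mock library, and if its mock mean was at least 2 CPM. Of the 19672 transcripts with such a mock mean, 217 passed the ratio and 175 also had no overlap between the groups. With the ratio and the order of the groups reversed, but the minimum still set on the mock mean, 185 transcripts were raised. Transcripts raised from a mock mean below 2 CPM are left out of that count, so the 2 numbers are not a like comparison. The values in roots at 6 h are therefore a description with no test, and the tests below were made in roots at 2 and 24 h and in shoots, in libraries that the rule did not use.

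The plants were wild-type rice of the cultivar Nipponbare, grown in hydroponics to an age of 3 weeks. All 36 sample titles carry the mark +P, and the nutrient solution of all plants contained potassium phosphate. Zaxinone plants received 5 µM zaxinone in the growth medium and mock plants the solvent acetone without it. Roots and shoots were taken at 2, 6 and 24 h, with 3 libraries in each of the 12 combinations of treatment, tissue and time, 36 in all. The libraries of a condition are described as independent biological replicates, but the plants pooled in each are not given, so the p-values measure the spread between these libraries.

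Apocarotenoids are made by the oxidative cleavage of carotenoids, and among them are the hormones abscisic acid and strigolactone. Zaxinone is formed in rice by a carotenoid cleavage dioxygenase, zaxinone synthase, and plants that lack this enzyme grow less and release more strigolactone. Supplied from outside, zaxinone acts as a growth regulator and a negative regulator of strigolactones. A transcript can be lowered because less is made or because more is degraded, and, in whole roots, fewer cells of a type and less RNA per cell cannot be told apart. None of the 175 identifiers matched the gene table used here, so they are given as locus names of the rice genome annotation, in which the digits after Os are the chromosome and the digits after g the order along it, and no gene name or role is assigned.

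Among the members are 7 of 15 loci with primers for quantitative reverse-transcription PCR (qRT-PCR). Of 24 loci listed for sugar metabolism and 13 listed as cytokinin glucosyltransferases, 0 are members. The study selected these lists among genes it called changed by zaxinone, at 6 h and at 24 h, and presents such genes as induced. The 0 was therefore largely set by that selection and is no result about these pathways. The levels of the 7 qRT-PCR loci are described below. Zaxinone was lower without overlap at both 2 and 24 h in roots for all 7, against 33 of 171 members tested at both times. They therefore show 1 of several time courses. The primers of 3 of these 7 loci are shown, 5′ to 3′. They are the only sequences at hand that identify members independently of the read counts. None carries a mark in capitals.

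Os07g28250 forward primer: tatacgagcacgaaacgcca
Os07g28250 reverse primer: tgcagggtgttgaagaggac
Os10g10540 forward primer: gctctaggctcgttctcctg
Os10g10540 reverse primer: ctgcgtcagctacactcacc
Os02g35490 forward primer: tcgtcatcgtcatcatctcgc
Os02g35490 reverse primer: gaccttgaggagtccctcgt

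Between 11261992 and 36469854 reads were counted per library. Zaxinone replicate 2 of roots at 24 h had the fewest, and zaxinone replicate 2 of shoots at 6 h the next fewest, 13229890. Shoot RNA in the root libraries was checked with the 20 transcripts that were most shoot-enriched in mock plants at 2 h, a list taken from these data. Their summed level was 2.26 to 108 CPM in root libraries and 20966 to 30915 CPM in shoot libraries. None of the members is among them. In roots at 6 h the summed level was 52.5, 6.85 and 7.71 CPM with zaxinone, against 43.4, 3.85 and 34.0 CPM with mock, so that the groups overlapped.

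At 6 h the log2 ratio of zaxinone to mock ranged from -2.37 to -0.70 over the 175 members, with a median of -0.87. It was -1 or lower for 50 of them and -1.5 or lower for 5. The mock means ranged from 2.05 to 1439 CPM, with a median of 13.1 CPM. They lay below 10 CPM for 72 members, from 10 to 100 CPM for 79 and at 100 CPM or above for 24. Summed over all members, the level was 7254, 6798 and 5898 CPM in zaxinone roots, against 11830.0 to 12912 CPM in mock roots. Just inside the threshold of -0.7 were Os04g47930 at -0.7006, Os02g54640 at -0.7038 and Os05g32980 at -0.7048. Just outside were Os06g06000 at -0.6999, Os06g36450 at -0.6992 and Os01g21870 at -0.6991, so no gap separates members from non-members.

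The lowest ratio at 6 h was that of Os10g31380, -2.37. It had 6.17, 2.45 and 4.64 CPM in zaxinone roots, against 24.0, 23.3 and 27.3 CPM in mock roots. The mock libraries lay close together, and the highest zaxinone library was far below them. Os09g39090 had 6.10, 3.68 and 3.50 CPM in zaxinone roots, against 17.4, 26.5 and 15.3 CPM in mock roots, a log2 ratio of -2.04. Os01g42320 had 1.45, 2.27 and 0.991 CPM in zaxinone roots, against 6.65, 8.11 and 7.93 CPM in mock roots, a log2 ratio of -1.96. By the rule the groups do not overlap for either. They were followed by Os01g22680 at -1.59, Os01g24600 at -1.50, Os01g22670 at -1.43, Os01g24570 at -1.37, Os06g36390 at -1.35, Os03g04680 at -1.35 and Os07g41850 at -1.29. Of these 10, 9 had a negative fold change at 2 h and 8 at 24 h, and all zaxinone libraries lay below all mock libraries for 4 and 3 of them, against 6.63% and 11.4% of all transcripts. The 3 lowest differed in what followed. Os10g31380 had 11.8, 5.49 and 13.4 CPM in zaxinone roots, against 11.2, 16.0 and 34.6 CPM in mock roots at 2 h and 5.35, 0.266 and 2.96 CPM in zaxinone roots, against 8.27, 13.1 and 9.42 CPM in mock roots at 24 h. The groups overlapped at 2 h and were apart at 24 h, when edgeR's quasi-likelihood test gave a log2 fold change -1.78 ± 0.73 SE, adjusted p = 0.581. Os09g39090 was already low at 2 h, with 1.70, 1.07 and 2.08 CPM in zaxinone roots, against 4.77, 6.57 and 3.84 CPM in mock roots, but the groups overlapped at 24 h, with 4.12, 3.46 and 1.80 CPM in zaxinone roots, against 6.07, 4.20 and 1.97 CPM in mock roots. For Os01g42320 they overlapped at both other times. Os07g41850 had 1.05, 1.56 and 1.24 CPM in zaxinone roots, against 4.15, 4.71 and 2.73 CPM in mock roots at 6 h. At 24 h both groups were higher and overlapped, with 27.5, 29.0 and 16.6 CPM in zaxinone roots, against 43.6, 20.9 and 12.2 CPM in mock roots.

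The 8 members with the highest mock level at 6 h were Os01g25484, Os02g37190, Os11g24140, Os09g31080, Os12g06490, Os08g08980, Os07g01410 and Os04g44060, with mock means of 1439 to 393 CPM. Of these 8, Os08g08980 and Os12g06490 had all zaxinone libraries below all mock libraries at 2 h, against 33.1% of all members and 6.63% of all transcripts. These 2 and Os02g37190 had so at 24 h, against 42.1% of the members tested and 11.4% of all transcripts. The others overlapped, as most members did at each of these times. Os01g25484, the most abundant, had 898, 887 and 595 CPM in zaxinone roots, against 1261, 1696 and 1361 CPM in mock roots at 6 h. At 24 h it had 1624, 3718 and 1867 CPM in zaxinone roots, against 1703, 1933 and 1847 CPM in mock roots. The groups overlapped there, and zaxinone replicate 2 was the highest of the 6 libraries. Os02g37190 had 709, 638 and 594 CPM in zaxinone roots, against 1219, 1105 and 1508 CPM in mock roots at 6 h, and 124, 78.8 and 95.8 CPM in zaxinone roots, against 374, 414 and 300.1 CPM in mock roots at 24 h. At 2 h it had 204, 212 and 325 CPM in zaxinone roots, against 269, 461 and 272 CPM in mock roots, with overlap, and its log2 fold change was -1.83 at 24 h and -0.41 at 2 h (edgeR adjusted p = 0.241 and 0.811). Os11g24140 had 722, 549 and 367 CPM in zaxinone roots, against 902, 1037 and 954 CPM in mock roots at 6 h, whereas at 2 h it had 805, 1029 and 751 CPM in zaxinone roots, against 706, 782 and 798 CPM in mock roots. At 2 h the groups overlapped. Os09g31080 and Os07g01410 overlapped at 2 and 24 h. In zaxinone replicate 2 at 24 h Os09g31080 stood at 2075 CPM, against 336 and 358 CPM in the other 2 zaxinone libraries.

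**Figure D1:**
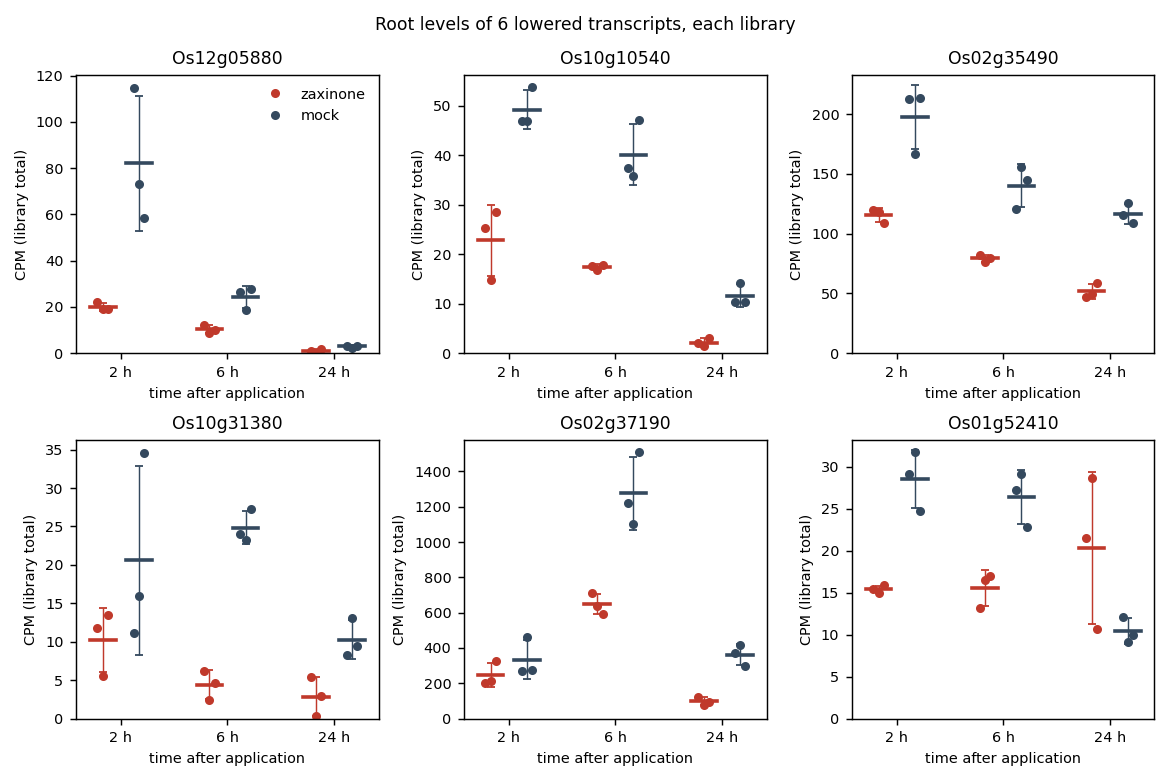
Root levels in CPM of library total (vertical axis, from 0) at 2, 6 and 24 h for 6 members, zaxinone left and mock right, with 3 libraries as points and the mean with its SD as bars. Os12g05880, Os10g10540 and Os02g35490 had all zaxinone libraries below all mock libraries at all 3 times, Os10g31380 and Os02g37190 overlapped at 2 h, and Os01g52410 was higher with zaxinone in 2 of 3 libraries at 24 h.

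At 2 h, in libraries the rule did not use, the members were mostly lower with zaxinone. All 175 were tested, and 140 had a negative log2 fold change, against 51.2% of the 23573 transcripts tested. Their median log2 fold change was -0.41, against -0.01 over all. By the quasi-likelihood test of edgeR, with p-values adjusted by Benjamini-Hochberg over all transcripts, 12 members were called lower at an adjusted p under 0.05, which is 6.86% of them, and none was called higher. Over all transcripts 0.0933% were called lower, 22 in number, so that 12 of these 22 calls were members, and 0.543% were called higher. At an unadjusted p under 0.05, 65 members were lower and 5 higher, against 3.2% and 4.45% of all. DESeq2 called 38 lower and 2 higher, against 0.461% and 1.1% of all. All zaxinone libraries lay below all mock libraries for 58 members and above them for 3, against 6.63% and 6.37% of all transcripts tested. With 3 libraries against 3, the smallest p that an exact permutation test can give is 0.1. The number called depended on single libraries. It was 2 without mock replicate 1, 2 without zaxinone replicate 1 and 5 without zaxinone replicate 2. Os12g05870 and Os12g05880 were the members called in every one of the 6 fits that left a library out.

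The 2 strongest calls at 2 h were neighbours on chromosome 12. Os12g05880 had 22.1, 19.0 and 19.0 CPM in zaxinone roots, against 115, 73.0 and 58.7 CPM in mock roots (log2 fold change -2.01 ± 0.23 SE, adjusted p = 0.00438 by edgeR). Os12g05870 had 20.9, 21.7 and 26.0 CPM in zaxinone roots, against 121, 69.8 and 72.2 CPM in mock roots (log2 fold change -1.91 ± 0.22 SE, adjusted p = 0.00478 by edgeR). No zaxinone library came near the lowest mock library of either. The largest difference was that of Os07g28250, one of the qRT-PCR loci, with 0.556, 0.893 and 1.15 CPM in zaxinone roots, against 5.44, 7.10 and 3.63 CPM in mock roots (log2 fold change -2.60 ± 0.38 SE, adjusted p = 0.0173 by edgeR). Its ratio at 6 h, -0.73, ranked only 159th of 175, with 4.68, 6.09 and 7.29 CPM in zaxinone roots, against 11.8, 7.71 and 11.4 CPM in mock roots. Os04g29580 had 55.7, 35.9 and 69.5 CPM in zaxinone roots, against 172, 129 and 151 CPM in mock roots (log2 fold change -1.46 ± 0.23 SE, adjusted p = 0.0228 by edgeR). Os04g46530 had 17.1, 16.6 and 22.6 CPM in zaxinone roots, against 39.6, 48.2 and 36.04 CPM in mock roots (log2 fold change -1.11 ± 0.17 SE, adjusted p = 0.0239 by edgeR). No library of either overlapped with the other group. Os12g05860, the next neighbour of the chromosome 12 pair, averaged 8.25 ± 3.09 CPM in zaxinone roots and 27.8 ± 6.31 CPM in mock roots (SD, n = 3 each; edgeR adjusted p = 0.0273). Os09g29560 averaged 42.8 ± 9.74 CPM in zaxinone roots and 99.7 ± 16.7 CPM in mock roots (edgeR adjusted p = 0.0283), and Os09g09570 4.54 ± 1.11 CPM in zaxinone roots and 13.5 ± 3.23 CPM in mock roots (edgeR adjusted p = 0.0384). The remaining 4 calls, Os01g52410, Os09g09560, Os07g14490 and Os06g47850, had edgeR adjusted p-values of 0.0398 to 0.0426 and are named here outside the set of 8 smallest p-values. The mock mean was 1.85 to 6.22 times the zaxinone mean over the 12. Of the 12, 6 belonged to groups of neighbouring members, against 31 of all 175. All 12 had a mock mean below 2 CPM in shoots at 2 h or were not listed there. Most members did so, as only 63 of the 175 reached 2 CPM there, and the rule set no minimum for shoots.

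The members with the highest fold changes at 2 h were Os01g73110, Os02g37330 and Os07g03200. Os07g03200 had 17.3, 17.9 and 18.9 CPM in zaxinone roots, against 6.67, 6.83 and 14.1 CPM in mock roots at 2 h (edgeR adjusted p = 0.286), but 6.61, 3.45 and 3.998 CPM in zaxinone roots, against 8.25, 11.3 and 6.99 CPM in mock roots at 6 h. Its libraries were apart in opposite directions at the 2 times. Os02g37330 had 1.54, 2.59 and 3.02 CPM in zaxinone roots, against 1.23, 1.36 and 0.886 CPM in mock roots at 2 h and 1.74, 1.89 and 1.84 CPM in zaxinone roots, against 3.51, 3.16 and 3.28 CPM in mock roots at 6 h, also apart in both. The value of Os01g73110 at 2 h rested on zaxinone replicate 2, with 2.03, 33.0 and 2.36 CPM in zaxinone roots, against 7.64, 7.66 and 1.81 CPM in mock roots, and the groups overlapped.

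**Figure D2:**
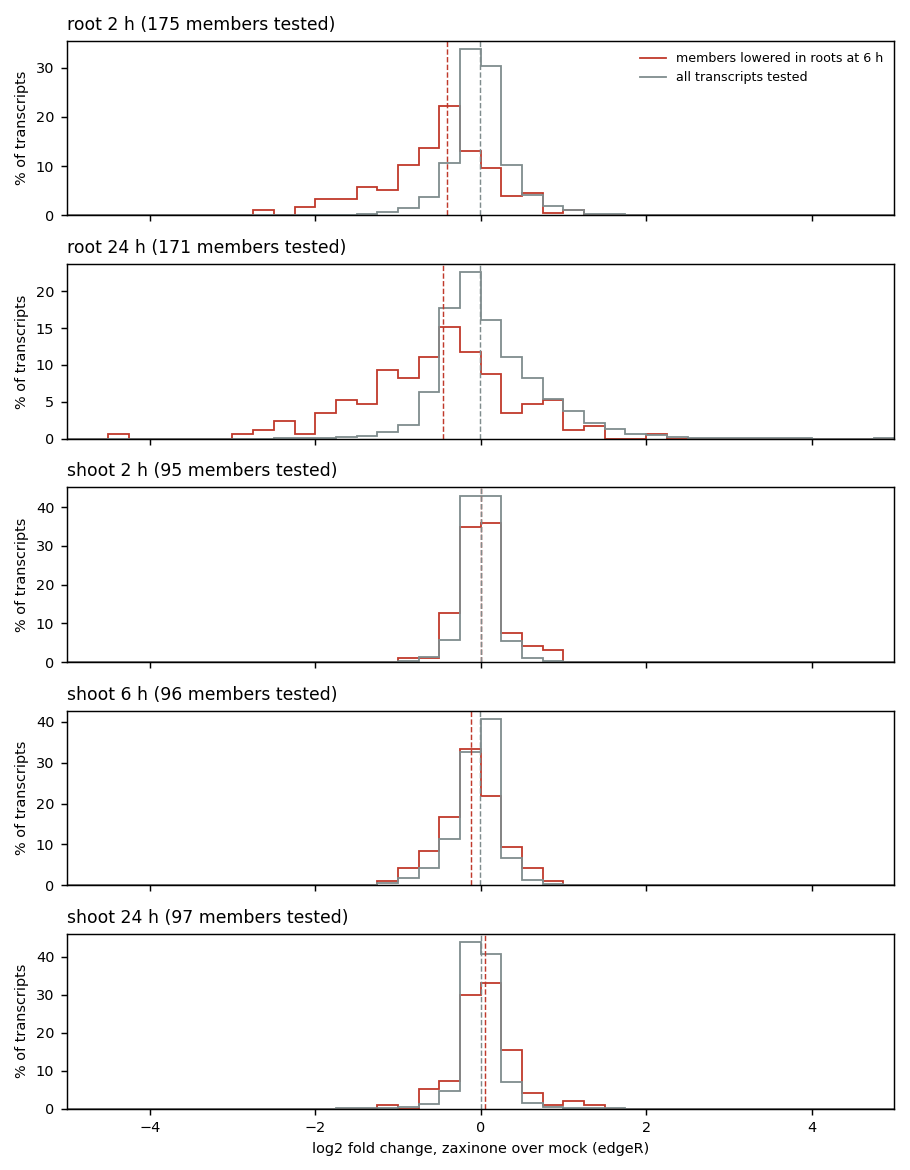
Share of transcripts (vertical axis, %) by log2 fold change of zaxinone over mock from edgeR (horizontal axis, bins of 0.25) for the members in red and all transcripts tested in grey, with dashed lines at the medians. The members' median was -0.41 at 2 h and -0.45 at 24 h in roots, and 0.00, -0.12 and 0.05 at 2, 6 and 24 h in shoots.

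The members were spread over all 12 chromosomes, from 10 on chromosome 8 to 29 on chromosome 1. Of them, 31 had another member within 50 locus numbers, in 14 groups. How many of 175 other expressed transcripts would have such a neighbour was not examined, so whether members cluster was not tested. In 11 of the 14 groups every locus within the span that had a mock mean of at least 2 CPM at 6 h was itself a member. The span ran from the first to the last member, and in many groups these stand next to each other in the numbering. That count was therefore partly fixed in advance, and loci beyond the spans were not examined. In 11 groups all fold changes at 2 h were negative, while 80% of all members had a negative fold change then. All zaxinone libraries lay below all mock libraries for 20 of the 31, against 58 of all 175 members and 6.63% of all transcripts. At 24 h the fold changes were negative throughout in 10 of the 13 groups tested, while 74.3% of the members tested were negative. Of the 31, 15 had no overlap there, against 42.1% of the members tested and 11.4% of all transcripts. With such shares many groups can be negative throughout whether or not neighbours move together, which was not tested. Neighbouring loci can be near-identical copies that share reads, and whether they are was not tested.

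The largest group was that of Os01g24550, Os01g24560, Os01g24570 and Os01g24600 on chromosome 1. At 6 h Os01g24560 had 97.8, 103 and 142 CPM in zaxinone roots, against 227, 206 and 281 CPM in mock roots, Os01g24550 averaged 42.7 ± 7.40 CPM in zaxinone roots and 99.5 ± 9.53 CPM in mock roots, and Os01g24570 averaged 19.6 ± 3.17 CPM in zaxinone roots and 51.4 ± 7.72 CPM in mock roots (SD, n = 3 each). Their log2 fold changes at 2 h were only -0.59, -0.55 and -0.29, and that of Os01g24600 was -0.62, with edgeR adjusted p-values of 0.427 to 0.780. At 24 h they were -0.46, 0.04, -0.26 and 0.14. A group of 3 lay on chromosome 12, Os12g05860, Os12g05870 and Os12g05880, and edgeR called all 3 lower at 2 h. At 6 h these had log2 ratios of -0.75, -0.97 and -1.19, and Os12g05880 averaged 10.4 ± 1.75 CPM in zaxinone roots and 24.3 ± 4.76 CPM in mock roots (SD, n = 3 each). Their mean level in mock roots was lower at each later time. Os12g05880 averaged 82.1, 24.3 and 2.96 CPM in mock roots at 2, 6 and 24 h, and at 24 h it had 0.966, 0.178 and 1.72 CPM in zaxinone roots, against 3.34, 2.42 and 3.11 CPM in mock roots, still without overlap.

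Among the pairs, Os01g22670 and Os01g22680 followed the same course. Os01g22670 had 24.7, 16.5 and 56.9 CPM in zaxinone roots, against 113, 189.8 and 63.6 CPM in mock roots at 2 h, where zaxinone replicate 3 approached the lowest mock library without reaching it. The log2 fold changes of Os01g22670 and Os01g22680 at 2 h were -1.87 and -2.22 (edgeR adjusted p = 0.186 and 0.199). Os01g11830 and Os01g11840 were expressed at 2 and 6 h and nearly absent at 24 h. Os01g11830 had 4.90, 5.62 and 3.72 CPM in zaxinone roots, against 11.3, 9.41 and 14.6 CPM in mock roots at 6 h, and 0.371, 0.799 and 0.240 CPM in zaxinone roots, against 0.519, 0.290 and 0.0409 CPM in mock roots at 24 h, too few for a test. Os07g14470 and Os07g14490 had the strongest difference of any pair at 24 h, with log2 fold changes of -2.71 and -2.82, though these were not called (edgeR adjusted p = 0.320 and 0.520). This pair is named for that value, which was seen first. Os07g14490 had 2.49, 0 and 4.48 CPM in zaxinone roots, against 13.9, 21.2 and 16.7 CPM in mock roots at 24 h.

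**Figure D3:**
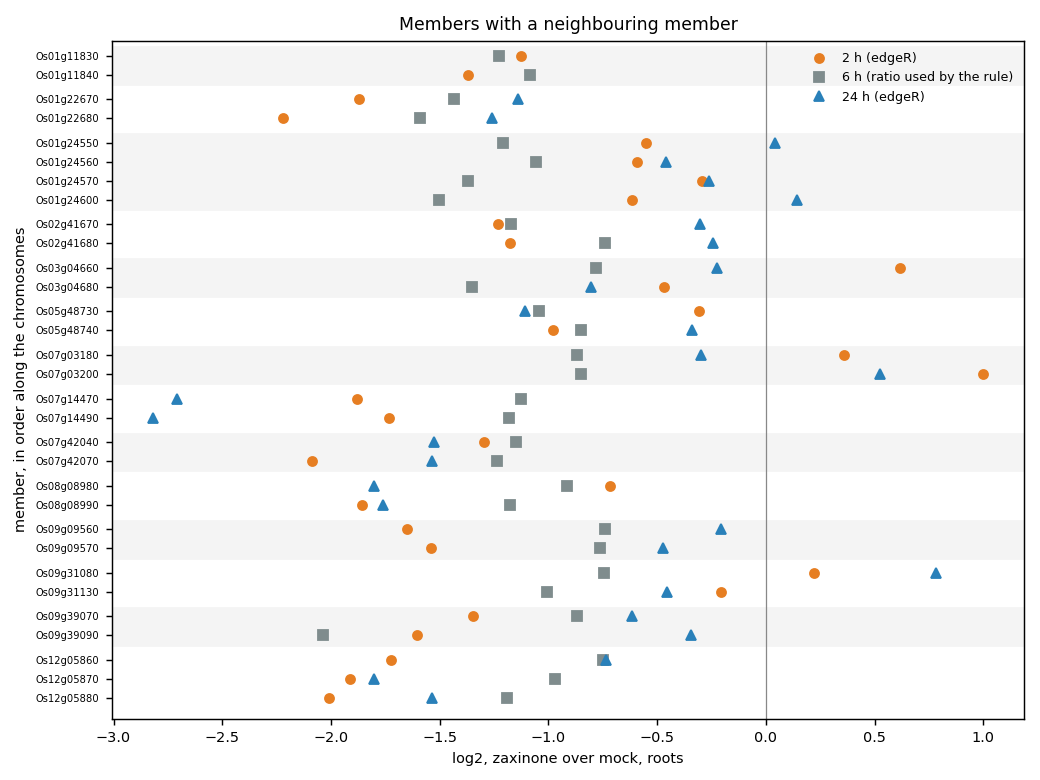
Log2 of zaxinone over mock in roots (horizontal axis) at 2 h (circles, edgeR), 6 h (squares, the ratio used by the rule) and 24 h (triangles, edgeR) for the 31 members with a neighbouring member, in order along the chromosomes from top to bottom, with shading alternating between the 14 groups. Most circles and triangles lie left of 0, close together within some groups and apart within others, such as Os03g04660 and Os03g04680 at 2 h; the 2 members without a triangle were too low to be tested at 24 h.

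At 24 h most members again had a negative fold change, and none was called by edgeR. Of 171 members tested, 127 had a negative log2 fold change, against 50.1% of the 23616 transcripts tested, and the median was -0.45 over the members and 0.00 over all. The other 4 members did not pass the filter on low counts. edgeR's quasi-likelihood test called 0 of 171 members in either direction, with 0% of all transcripts called lower and 0.00423% higher. At an unadjusted p under 0.05, 59 members were lower and 6 higher, against 2.24% and 6.22% of all transcripts. DESeq2 called 17 members lower and 0 higher, against 0.24% and 1.18% of all. All zaxinone libraries lay below all mock libraries for 72 members and above them for 3, against 11.4% and 9.37% of all transcripts. Zaxinone replicate 2, the smallest library, bore on these values. Without it 17 of 172 members were called lower by edgeR, among 58 transcripts in all, 146 had a negative fold change and 105 of the 171 members had no overlap with zaxinone lower, against 16.1% of all transcripts. A fit of all 18 root libraries together called 27 members lower, among 113 transcripts, but took the spread partly from the 6 h libraries on which the members were chosen.

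The lowest fold change at 24 h was that of Os10g01390, which is named after its value was seen. It had 0.0743, 0 and 0.120 CPM in zaxinone roots, against 1.33, 1.84 and 2.21 CPM in mock roots, and its log2 fold change was -4.43 (edgeR adjusted p = 0.241). The zaxinone libraries held 0 to 3 reads of it, and the mock libraries 38 to 54. At 2 h it had 0.131, 0.312 and 0.411 CPM in zaxinone roots, against 2.35, 0.982 and 1.90 CPM in mock roots, also without overlap. The members with the highest fold changes at 24 h had their highest value in zaxinone replicate 2. Os06g09920, the first of them, had 8.25, 74.8 and 7.08 CPM in zaxinone roots, against 8.50, 7.59 and 7.00 CPM in mock roots (edgeR adjusted p = 0.581). Os01g08220, the second, had 21.8, 62.6 and 9.92 CPM in zaxinone roots, against 10.2, 14.1 and 12.8 CPM in mock roots. The groups overlapped for both. Os06g36390 had 3.79, 5.15 and 1.76 CPM in zaxinone roots, against 2.11, 1.30 and 0.860 CPM in mock roots at 24 h, and here 2 of the 3 zaxinone libraries were above every mock library. The summed level of the members was 9034, 13117 and 8958 CPM in zaxinone roots, against 10977, 12858 and 11229.9 CPM in mock roots, with zaxinone replicate 2 above every mock library and the other 2 below.

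Over the 171 members tested at both times, the log2 fold changes at 2 h and at 24 h, which share no library, had a Pearson correlation of 0.46 across members, given as a description. Both were negative for 108 members, both positive for 16, and opposite for 47. All zaxinone libraries lay below all mock libraries at both times for 33 members, at 2 h only for 23, at 24 h only for 39 and at neither for 76. Of the 22985 transcripts tested at both times, 1.37% were lower without overlap at both, 5.25% at 2 h only, 10.2% at 24 h only and 83.2% at neither. The change of the zaxinone effect between 24 h and 2 h was tested directly. edgeR called 0 of 175 members, with 0.00408% of 24507 transcripts called lower and 0% higher. At an unadjusted p under 0.05, 12 members had a lower effect at 24 h than at 2 h and 15 a higher one, against 1.62% and 4.24% of all, and DESeq2 called 3 lower and 1 higher, against 0.0982% and 0.154%. Of the 12 members called at 2 h, 11 had a negative fold change at 24 h and 8 had no overlap there. The exception was Os01g52410, with 21.5, 28.7 and 10.7 CPM in zaxinone roots, against 12.1, 9.08 and 9.95 CPM in mock roots at 24 h, whereas at 2 h it had 15.4, 15.0 and 15.8 CPM in zaxinone roots, against 29.1, 31.7 and 24.8 CPM in mock roots. Its zaxinone effect differed between the times by a log2 fold change of 1.90 (edgeR adjusted p = 0.556).

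**Figure D4:**
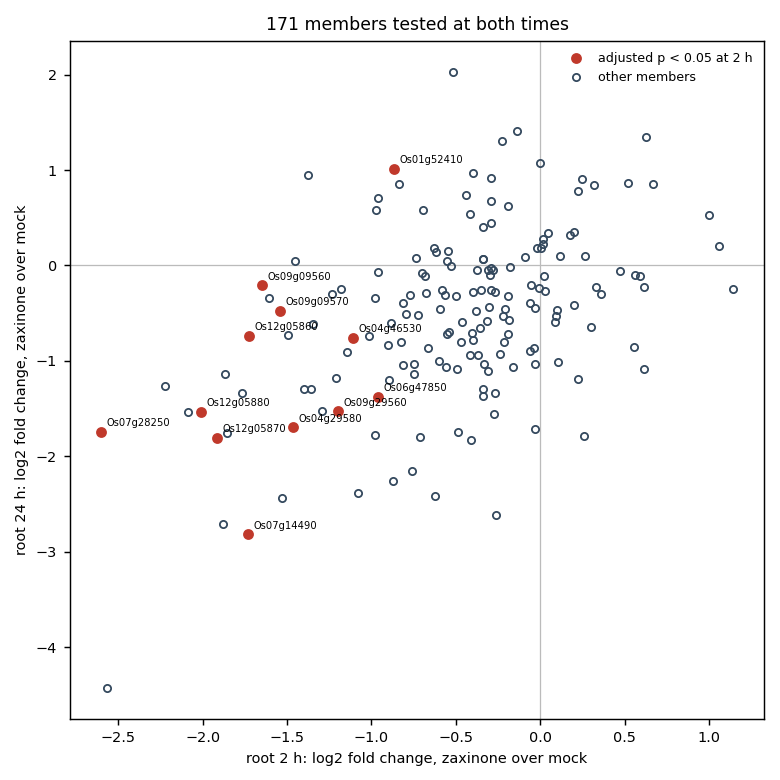
Log2 fold change of zaxinone over mock from edgeR in roots at 2 h (horizontal axis) and at 24 h (vertical axis) for the 171 members tested at both times, with the 12 members called at 2 h filled and labelled. Of the points, 108 lie at the lower left, where both fold changes are negative, and Os01g52410 is the labelled member above 0 at 24 h.

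The 7 qRT-PCR loci among the members, Os01g16170, Os02g35490, Os06g05990, Os07g14470, Os07g28250, Os10g07556 and Os10g10540, all had every zaxinone library below every mock library in roots at 2 h and again at 24 h. The study took them from these samples, so their shared direction is not independent evidence. In the study's own qRT-PCR all 7 had a negative log2 fold change at 2 h and at 24 h. At 6 h its qRT-PCR values were nearer 0 than its sequencing values for all 7. They lay above 0 for Os02g35490, Os10g07556 and Os10g10540, so qRT-PCR did not show these as lowered at 6 h. By edgeR 1 of the 7, Os07g28250, was called at 2 h and none at 24 h, and by DESeq2 all 7 at 2 h and 6 at 24 h. Os10g10540 had 25.2, 14.8 and 28.5 CPM in zaxinone roots, against 46.9, 46.9 and 53.6 CPM in mock roots at 2 h, 17.7, 16.7 and 17.8 CPM in zaxinone roots, against 37.4, 35.9 and 47.1 CPM in mock roots at 6 h, and 2.01, 1.42 and 3.04 CPM in zaxinone roots, against 10.3, 14.3 and 10.4 CPM in mock roots at 24 h. The level of both groups was lowest at 24 h, when the log2 fold change was -2.38 ± 0.34 SE, against -1.08 ± 0.22 SE at 2 h (edgeR adjusted p = 0.241 and 0.0816). The difference between the times was not called (edgeR adjusted p = 0.760). Os02g35490 had 119.7, 118 and 109 CPM in zaxinone roots, against 212, 166 and 213 CPM in mock roots at 2 h, and 46.8, 49.9 and 58.5 CPM in zaxinone roots, against 116, 125 and 109 CPM in mock roots at 24 h. At 24 h the libraries of a group lay close together, and the groups were far apart. At 2 h the mock libraries were spread more widely, and the lowest of them, at 166 CPM, was nearer to the zaxinone libraries. The log2 fold changes were -0.75 at 2 h and -1.14 at 24 h (edgeR adjusted p = 0.0529 and 0.320). Os07g14470 had 2.49, 1.92 and 3.87 CPM in zaxinone roots, against 13.2, 13.0 and 5.06 CPM in mock roots at 2 h, where mock replicate 3 was close to the highest zaxinone library, and 0.780, 0.533 and 1.76 CPM in zaxinone roots, against 5.74, 8.12 and 7.29 CPM in mock roots at 24 h, where the groups were farther apart. Os01g16170 averaged 20.7 ± 3.24 CPM in zaxinone roots and 39.0 ± 7.96 CPM in mock roots at 2 h, and 9.71 ± 3.03 CPM in zaxinone roots and 23.0 ± 1.26 CPM in mock roots at 24 h (SD, n = 3 each). Os06g05990 averaged 60.1 ± 5.86 CPM in zaxinone roots and 96.8 ± 21.2 CPM in mock roots at 2 h, and 21.5 ± 2.69 CPM in zaxinone roots and 40.2 ± 5.93 CPM in mock roots at 24 h. Os10g07556 averaged 6.41 ± 2.72 CPM in zaxinone roots and 17.3 ± 5.35 CPM in mock roots at 2 h, and 3.54 ± 1.67 CPM in zaxinone roots and 8.90 ± 1.55 CPM in mock roots at 24 h. Without zaxinone replicate 2, edgeR called 4 of the 7 lower at 24 h: Os01g16170, Os02g35490, Os07g14470 and Os10g10540.

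The level of many members also depended on time in the absence of zaxinone. In mock roots, 55 of 175 members were lower at 24 h than at 2 h and 16 were higher by edgeR's quasi-likelihood test, against 8.16% and 5.17% of the 23595 transcripts tested. Over the 19656 of these with a mock mean of at least 2 CPM in roots at 6 h the shares were 8.99% and 5.26%. The median log2 fold change of 24 h over 2 h was -0.36 over the members and -0.01 over all. This comparison and that of zaxinone with mock at 2 h share the mock libraries at 2 h. Os04g29580 had 18.7, 17.1 and 15.0 CPM in mock roots at 24 h, against 172, 129 and 151 CPM at 2 h (log2 fold change -3.19, edgeR adjusted p = 3.87e-06). Os12g05870 had 3.28, 2.61 and 2.58 CPM at 24 h, against 121, 69.8 and 72.2 CPM at 2 h (log2 fold change -4.99, edgeR adjusted p = 4.42e-06). The libraries of the 2 times did not overlap for either. In the other direction, Os04g44060 had 1635, 2455 and 2118 CPM in mock roots at 24 h, against 727, 1234 and 624 CPM at 2 h (log2 fold change 1.23, edgeR adjusted p = 0.00995). Its mock mean at 6 h, 393 CPM, was below those at 2 and 24 h.

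The rule asked for a minimum level in mock roots and set none for shoots, so the members were tilted toward root transcripts from the start, and their levels in the tissues are a description. All 175 were listed in roots at every time, and 146, 142 and 143 in shoots at 2, 6 and 24 h, where a transcript is listed from 2 reads in a table. In none of the shoot tables were 23 of them. In mock plants at 2 h, 108 of the 146 members tested were higher in roots than in shoots and 18 were lower, against 31.3% and 32.2% of the 23961 transcripts tested by edgeR. The median log2 fold change of root over shoot was 2.68 over the members and -0.01 over all. Over the 19366 transcripts tested that also had a mock mean of at least 2 CPM in roots at 6 h, 35.9% were higher in roots and 26.9% lower, with a median of 0.11. The log2 fold change was 4 or more and called for 57 members. At 24 h, 104 of 140 members were higher in roots and 21 lower, against 36.1% and 34.9% of 23679 transcripts, with medians of 2.32 and 0.03. Over the 19314 with that mock mean the shares were 40.4% and 30.4%. At both times 89 members were higher in roots and 16 higher in shoots. Os11g24140 had 706, 782 and 798 CPM in mock roots at 2 h, against 0, 0.0743 and 0 CPM in mock shoots. Os02g37190 had 269, 461 and 272 CPM in mock roots, against 0.821, 0.260 and 0.0748 CPM in mock shoots. Both were near the level of single reads in shoots. Os01g65690 stood at the opposite end and is named after its values were seen. It had 0.858, 1.28 and 0.464 CPM in mock roots at 2 h, against 162, 232 and 157 CPM in mock shoots, and a similar level with zaxinone in shoots, 183, 200.0 and 173 CPM. Os03g04680, among the 10 lowest at 6 h, was also mainly a shoot transcript, with 5.15, 8.84 and 5.15 CPM in mock roots at 2 h, against 108, 92.1 and 76.2 CPM in mock shoots. At 6 h it had 2.65, 1.27 and 1.10 CPM in zaxinone roots, against 3.68, 4.54 and 6.89 CPM in mock roots. The summed level of the shoot-enriched transcripts in the root libraries at 6 h, given above, overlapped between the groups.

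**Figure D5:**
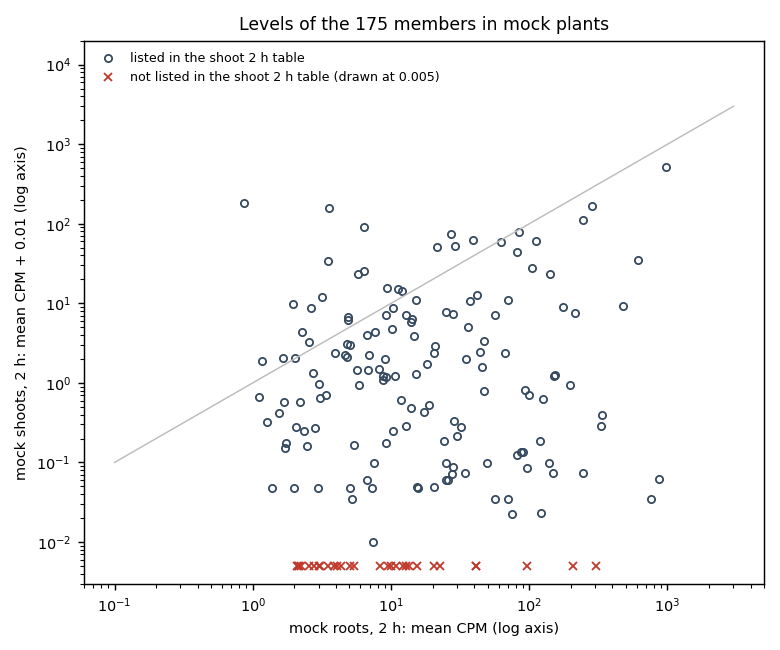
Mean level of each of the 175 members in mock roots (horizontal axis) and in mock shoots (vertical axis, with 0.01 CPM added) at 2 h, in CPM on log axes, with the line of equal levels. Members not listed for shoots are drawn as crosses at 0.005, and most points lie below the line, with a median log2 fold change of 2.68 for root over shoot.

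In shoots edgeR called no member at any time. At 2 h 95 members passed the filter on low counts, and edgeR called 0 of them, with 0% of 23281 transcripts called. The median log2 fold change was 0.00, and at an unadjusted p under 0.05 1 was lower and 2 were higher, against 2.19% and 1.85% of all. All zaxinone libraries lay below all mock libraries for 3 members and above them for 3, against 5.83% and 3.54%. DESeq2 called 0 of the members and 0.00336% of all transcripts. At 6 h 96 members were tested and 0 were called by edgeR, with 0% of 23084 transcripts called lower and 0.00433% higher. The median was -0.12, against 0.00 over all transcripts. At an unadjusted p under 0.05 15 were lower, 15.6% of them against 7.37% of all, and 4 were higher, against 4.47% of all. All zaxinone libraries lay below all mock libraries for 12 members and above them for 10, against 7.68% and 8.69%. DESeq2 called 4 lower and 0 higher, against 0.362% and 0.129% of all, and without zaxinone replicate 2, the smallest shoot library, edgeR called 5 lower, among 485 transcripts in all. At 24 h 97 members were tested and edgeR called 0, with 0% of 22786 transcripts called. The median was 0.05, and at an unadjusted p under 0.05 2 were lower and 9 higher, against 1.31% and 2.65% of all. All zaxinone libraries lay below all mock libraries for 4 members and above them for 6, against 4.13% and 4.34%. DESeq2 called 0 of the members and 0.0102% of all transcripts. Os01g16170, for which zaxinone was without overlap below mock in roots, had 71.1, 68.3 and 66.9 CPM in zaxinone shoots, against 62.1, 53.1 and 72.0 CPM in mock shoots at 2 h and overlapped. Os12g06490 had 46.4, 43.9 and 43.0 CPM in zaxinone shoots, against 40.4, 43.1 and 42.7 CPM in mock shoots at 6 h, also with overlap.

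The zaxinone effect was compared between root and shoot directly. At 2 h the median difference in log2 fold change, root minus shoot, was -0.32 over 146 members and -0.02 over the 24725 transcripts tested. edgeR called 1 member, Os11g34110, with a lower effect in roots, against 0.00404% of all transcripts, and none with a higher one. At an unadjusted p under 0.05 24 were lower and 5 higher, against 2.83% and 3.69% of all. DESeq2 called 4 lower and 0 higher, against 0.119% and 0.532% of all. Os11g34110 had 0.589, 0.625 and 1.04 CPM in zaxinone roots, against 3.13, 2.87 and 1.90 CPM in mock roots, whereas it had 11.7, 9.06 and 11.2 CPM in zaxinone shoots, against 8.64, 7.10 and 10.4 CPM in mock shoots. The groups were apart in roots and overlapped in shoots, and the effects differed by -2.08 ± 0.38 SE on the log2 scale (edgeR adjusted p = 0.0489). This call was lost in 10 of 16 alternative fits, in which the adjusted p reached 0.136. At 24 h the median difference was -0.45 over 141 members and -0.01 over 24536 transcripts. edgeR called 0 members, with 0.00408% of all transcripts called lower and 0.0122% higher. At an unadjusted p under 0.05 33 members were lower and 1 higher, against 2.51% and 4.48% of all, and DESeq2 called 8 lower, against 0.0944% of all, and 0 higher, against 0.363%. Without zaxinone replicate 2 of the roots edgeR called 6 members lower and 0 higher, among 22 and 62 of 24754 transcripts. Without zaxinone replicate 3 of the roots it called 4 lower and 0 higher, among 14 and 99 of 24810.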

How the data were processed

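RNA was sequenced as paired ends from roots and shoots of rice at 2, 6 and 24 h after zaxinone or mock application (36 libraries, 3 per condition). The authors removed adapters with Trimmomatic, aligned with HISAT2 to the Nipponbare genome held by Phytozome and counted with HTSeq; tool versions are not given in the sources used here. Per tissue and time they deposited raw counts per transcript, not normalized, for 6 libraries. The same tables hold fold changes and significance values of the authors' own DESeq2 run, which were not used. Each table came in 2 copies, of which 1 was read.

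The 175 members were found from counts divided by the library total. For tests, counts were normalized by TMM, filtered with filterByExpr and fitted by edgeR's quasi-likelihood method (edgeR 4.0.16, limma 3.58.1, R 4.3.3) within the 6 libraries of a tissue and time. P-values were adjusted by Benjamini-Hochberg over all transcripts, with a threshold of 0.05. Differences of the zaxinone effect between 24 h and 2 h, and between root and shoot, were tested as interactions over 12 libraries. The scripts were tested on simulated data. In shoots at 2 h the deviations of same-numbered zaxinone and mock libraries from their group means correlated at 0.117, 0.170 and 0.203, so that the labels' replicate numbers may mark pairs there. In the other comparisons not every pair was above 0.1.

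The members and lists were chosen with earlier results of these data known. Transcripts are named by a rule: the 10 lowest ratios at 6 h, the 8 highest mock levels, the qRT-PCR loci, up to 8 called members per comparison, the 3 highest fold changes at 2 and 24 h in roots, 3 transcripts on each side of the threshold, and up to 4 groups of neighbours. Lists by product, tissue markers by name and promoter motifs were not analysed here, because none of the identifiers matched the gene table.

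Alternatives were DESeq2 1.42.0, the DESeq2 size factors within edgeR, removal of the filter, a minimum of 10 counts per sample, blocking by replicate number, a joint fit of the 18 libraries of each tissue, other thresholds and scaling in the rule, and fits that left out each library. TMM scaling of the overlap counts, overlap counts at 24 h with a library left out, the list of shoot-enriched transcripts, the shares of all transcripts called by DESeq2 and the tissue and time shares over transcripts with a mock mean of at least 2 CPM in roots at 6 h were added after seeing the data.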

Additional observations from a re-analysis of the deposited data

Results flagged for a closer look

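The effect of zaxinone on Os11g34110 at 2 h differed between the tissues. The difference in log2 fold change, root minus shoot, was -2.08 ± 0.38 SE in edgeR's test of the interaction (adjusted p = 0.0489, range over the 16 alternatives 5.13e-05 to 0.136). All 3 zaxinone libraries were below all 3 mock libraries in roots, and the groups overlapped in shoots. With the replicate number as a block the adjusted p was 0.0727, and of the 12 fits that left out 1 library, 3 kept the call. Root levels of this transcript at 2 h were below 4 CPM in every library.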

How the results depend on the processing

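The number of members depended on the rule. A ratio threshold of -1 gave 50, one of -0.5 gave 464, and leaving out 1 library gave 172 to 353, with 353 without zaxinone replicate 1 and 274 without mock replicate 3, where fewer libraries have to be apart. In roots at 2 h, where edgeR called 12 members lower, DESeq2 called 38, edgeR without the filter on low counts called 20, and leaving out 1 library gave 2 to 14: 2 without mock replicate 1, 2 without zaxinone replicate 1 and 5 without zaxinone replicate 2. The calls lower over all transcripts moved too, from 22 to 136 by DESeq2, 43 without the filter and 3 to 37 without 1 library. The members' median log2 fold change in roots at 2 h was -0.56 to -0.36. In roots at 24 h, where edgeR called 0, DESeq2 called 17 lower, the joint fit of the 18 root libraries 27, and fits without 1 library 0 to 17, with 17 without zaxinone replicate 2. Over all transcripts DESeq2 called 71 lower, the joint fit 113 and fits without 1 library 0 to 58. The median at 24 h was -0.32 over members with at least 10 counts in every sample. In shoots at 6 h DESeq2 called 4 lower and fits without 1 library 0 to 5, with 5 without zaxinone replicate 2. Over all transcripts DESeq2 called 107 lower there, and edgeR without zaxinone replicate 2 called 485. The median in shoots at 24 h was -0.0065 to 0.155 without 1 library, with 0.155 without mock replicate 2. With TMM scaling 2 members, not 4, were lower without overlap in shoots at 24 h. DESeq2 called 4 members for the difference between 24 h and 2 h in roots, 4 for root against shoot at 2 h and 8 at 24 h, where edgeR called 0, 1 and 0. Without 1 library edgeR called 0 to 1, 0 to 2 and 0 to 6 of them. The cause of these differences was not tested. The log2 fold change of Os09g09560 in roots at 24 h was -0.21, and -0.46 to 0.0195 without 1 library, with 0.0195 without mock replicate 1. Of 442 values of single named members under an alternative, 344 kept their direction and call, 42 gained a call, 55 lost it and 1 turned.

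Zaxinone and mock libraries of the same number deviated from their group means with correlations of -0.27 to 0.31 (median 0.096), above 0.1 in 7 of 18 pairs. With the replicate number as a block, 15 members were called lower in roots at 2 h. The call of Os11g34110 for root against shoot was lost (adjusted p = 0.0727 by edgeR), and 1 other member was called in its place. No other count of members called at an adjusted p under 0.05 moved by over 1.5 times. At an unadjusted p under 0.05 by edgeR, some counts moved more with the block. In shoots at 2 h 5 members, not 1, were lower, and in roots at 24 h 3, not 6, were higher. For root against shoot at 2 h 2, not 5, were higher.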
